A study of Mus musculus with 9 samples.

Results

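The genes of the translation initiation factors (Eif) and elongation factors (Eef) were followed in the gastrocnemius, a calf muscle, of female mice. They were taken by name, as symbols that begin with Eif or Eef and a digit and do not end in the pseudogene mark -ps, with at least 30 counts summed over the 9 libraries. This gave 66 of the 56791 genes in the count table, 53 Eif and 13 Eef genes. Each library is an RNA sequencing library of gastrocnemius tissue, with 3 libraries per group. The aged GB mice received ginkgolide B (GB), a terpene lactone of the ginkgo tree, at 12 mg/kg body weight by oral gavage every day for 2 months. The aged vehicle mice, titled 23M, and the young vehicle mice, titled 3M, received saline in the same way, and the GB titles give no age in months. No strain or genetic change is given for any group, and the labels do not tie libraries to individual animals. The p-values therefore rest on library-to-library spread, which may be technical.

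A protein is begun when eIF2, loaded with GTP and the initiator tRNA, joins the small ribosomal subunit together with eIF1, eIF1A, eIF3 and eIF5, and the eIF4 factors bring the subunit to the capped end of an mRNA. eIF2B reloads eIF2 with GTP, and the eIF2 kinases block that step under stress by phosphorylating the alpha subunit of eIF2. In elongation, eEF1A delivers the aminoacylated tRNAs, the eEF1B complex reloads eEF1A with GTP, and eEF2 moves the ribosome along. Adult muscle fibres are known for using eEF1A2 in place of eEF1A1, which most other cells use, and many factor mRNAs begin with a run of pyrimidines, the TOP tract, through which mTOR controls their translation.

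Levels are CPM (counts relative to library size, scaled by TMM factors), and the test was edgeR's quasi-likelihood test, with p-values adjusted over all 17534 genes tested and genes called at an adjusted p under 0.05. The aged GB libraries held 39478427 to 44294097 counts and the vehicle libraries 51543383 to 61680520. The aged GB libraries stood apart from all others: 18678 to 19362 genes had a count, against 22616 to 24185 with vehicle, and mitochondrially encoded genes took 24.3 to 26.1% of counts, against 13.9 to 15.3% under aged vehicle and 8.6 to 10.2% under young vehicle. Treatment and any difference in library preparation cannot be told apart. All 7 muscle fibre markers checked (such as Acta1 and Ckm) were present, and together they reached 151291 to 180809 CPM with GB, 96226 to 109088 CPM in the aged vehicle group and 134090 to 144047 CPM in the young vehicle group. With GB, 4 of the 7 rose and 1 fell, and 3 fell with age.

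Of the 66 genes, 65 were tested and 64 had a count in every library. Eef1akmt3, a methyltransferase gene of eEF1A, was too low to test, with 0 to 2 counts per aged GB library, 0 to 4 per aged vehicle library and 4 to 18 per young vehicle library. Its 40 summed counts made it the member nearest the limit of 30, and the highest name left out by that limit was Eif4e1b, an egg form of the cap-binding protein, with 10. The limit left out 23 names, of which 21 had no count at all, among them 17 Eif1ad copies and Eif2s3y, the Y-linked gene of the eIF2 gamma subunit. A count of 0 allows up to 3 counts, in a single library or over a group that is at 0 throughout.

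A start-site sequence was found for 51 of the 66 genes in RefSeq's promoter table (GRCm38.p6). The windows below are shown because the TOP tract sits at the first base of an mRNA, and because these genes lie on both sides of the GB comparison. They run from 10 bases before to 20 bases from the annotated start, and the capitals mark a C followed by at least 4 bases that are each C or T, beginning within 5 bases of the start on the gene's strand.
Eif3f: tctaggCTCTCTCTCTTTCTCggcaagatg
Eef1a1: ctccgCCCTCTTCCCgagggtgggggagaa
Eif2b5: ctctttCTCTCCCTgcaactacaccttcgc
Eif2s3x: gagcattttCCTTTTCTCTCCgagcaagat
Eif4g1: gcgcagctccgCCCTCTgcgccggtcacgt
They lie at chr7:108934405-108934434 (plus strand) for Eif3f, chr9:78481705-78481734 (minus strand) for Eef1a1, chr16:20498807-20498836 (plus strand) for Eif2b5, chrX:94212632-94212661 (minus strand) for Eif2s3x and chr16:20672717-20672746 (plus strand) for Eif4g1.

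The longest such runs among the matched genes were those of Eif3f, with 15 bases, and Eif2s3x, with 12. A run was present in 11 of the 51 genes (21.6%), or at 12 of the 66 starts the table lists for them (18.2%), against 5610 of all 32851 starts in the table (17.1%). A match of this kind describes the letters and shows no site in use.

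Markers of other cell types moved with these comparisons. The 5 endothelial markers summed to 234 to 282 CPM with GB, 527 to 533 CPM under aged vehicle and 340.5 to 359.5 CPM under young vehicle; all 5 fell with GB and 3 rose with age. The 5 fibroblast markers summed to 434 to 554 CPM with GB, 686 to 889.5 CPM under aged vehicle and 757 to 1460.4 CPM under young vehicle; all 5 fell with GB, and 1 rose and 1 fell with age. The 5 red blood cell markers summed to 687 to 782 CPM with GB, 1158 to 2129.8 CPM under aged vehicle and 232 to 515 CPM under young vehicle; 4 fell with GB and 5 rose with age. The 5 immune markers summed to 10.98 to 14.5 CPM with GB, 13.4 to 18.6 CPM under aged vehicle and 13.98 to 53.95 CPM under young vehicle; 1 rose and 1 fell with GB, and edgeR called 0 with age. None of these markers was at 0 in a whole group. The part of these cells in the factor gene differences was not tested, and in whole tissue fewer cells of a type and less RNA per cell cannot be told apart.

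The first comparison asked how the factor genes of aged muscle differ from those of young muscle under vehicle. Of the 65 genes tested, 3 fell with age and 62 were not called. The 3 were Eif4ebp2, Eef1a2 and Eif3j1. Over all genes, 4.28% were called lower and 4.32% higher with age, so the share of factor genes called lower, 4.62%, was near the background. edgeR called 0 factor genes higher with age, with 3 higher at an unadjusted p under 0.05, and DESeq2 also called 0. The median log2 fold change of the 65 genes was -0.036, against -0.0022 for all genes.

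Eif4ebp2, a 4E-BP that holds eIF4E away from the cap complex until mTOR phosphorylates it, was at 183, 170.5 and 170.1 CPM in aged vehicle libraries, against 265, 247 and 254 CPM in young vehicle libraries. The groups did not overlap, and the log2 fold change was -0.55 (SE 0.079, adjusted p = 0.00123). The related Eif4ebp1 was at 38.1, 27.5 and 26.1 CPM in aged vehicle, against 32.7, 27.97 and 28.7 CPM in young vehicle libraries, which overlapped. The fall of Eif4ebp2 was called in each of the 17 alternative analyses, with log2 fold changes of -0.58 to -0.52.

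Eef1a2, the eEF1A of adult muscle, heart and neurons, was at 1288, 1308 and 1241 CPM in aged vehicle libraries, against 1646, 1807 and 1807 CPM in young vehicle libraries, a log2 fold change of -0.45 (SE 0.098, adjusted p = 0.013). Eef1a1, the widely expressed form, was at 559.7, 538 and 558 CPM in aged vehicle, against 467, 493 and 448 CPM in young vehicle libraries, a log2 fold change of 0.23 (SE 0.11, adjusted p = 0.252). Neither gene's groups overlapped, with Eef1a2 lower and Eef1a1 higher in every aged vehicle library, but only the difference of Eef1a2 passed the test. In a fit of the 2 vehicle groups alone Eef1a1 was also called, as the 1 factor gene higher with age (adjusted p = 0.0452). The call of Eef1a2 was lost without young vehicle replicate 3 or aged vehicle replicate 3 (highest adjusted p = 0.0656).

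Because both genes are read in the same library, their ratio does not depend on library scaling. Per length, Eef1a1 made up 26.6, 25.6 and 27.3% of the pair in aged vehicle libraries, against 19.2, 18.6 and 17.2% in young vehicle libraries. The log2 ratio of Eef1a1 to Eef1a2 counts was -1.21 ± 0.065 in aged vehicle and -1.90 ± 0.099 in young vehicle libraries (SD, n = 3 each), a difference of 0.69. An exact two-sided permutation test gave p = 0.1, the smallest value that 3 against 3 libraries can give, and 0.2 after adjustment over the 4 ratio tests made. Reads of Eef1a1 are uncertain, since the gene has many processed copies in the genome.

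Eif3j1, a loosely bound eIF3 subunit, was at 98.4, 100.4 and 99.8 CPM in aged vehicle, against 125, 116 and 120.5 CPM in young vehicle libraries. Its log2 fold change was -0.28 (SE 0.077, adjusted p = 0.0427), and the groups did not overlap. This call was the least stable of the 3: it held in 5 of the 17 alternatives and was lost without any single vehicle library or without aged GB replicate 2 (highest adjusted p over all alternatives 0.134). In GENCODE vM21 its exons also overlap those of Spg11 on the other strand, and no use of strand in counting is stated.

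Eif4g1, the scaffold of the cap complex, missed the threshold and was at 632, 533 and 505 CPM in aged vehicle, against 703, 657 and 697 CPM in young vehicle libraries, with a log2 fold change of -0.30 (SE 0.091, adjusted p = 0.0621). Its groups did not overlap, and it was called lower in 5 of the 17 alternatives, with adjusted p over all of them from 0.0161 to 0.238. Eef2, the translocase, was at 1402, 1223 and 1139 CPM in aged vehicle, against 1506, 1383 and 1310.1 CPM in young vehicle libraries (-0.16, adjusted p = 0.344), and these overlapped. Eef2k, whose product inhibits eEF2 by phosphorylation, was at 58.7, 59.8 and 56.8 CPM in aged vehicle, against 79.4, 55.8 and 63.3 CPM in young vehicle libraries. Its level in young replicate 1 was the highest of the 9, and its adjusted p was 0.451. The genes not called had log2 fold changes of -0.31 to 0.33 with age. Without overlap between the groups, 11 of the 65 genes were higher in aged vehicle and 15 were lower, against 17.5 and 16.9% of all genes.

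**Figure D1:**
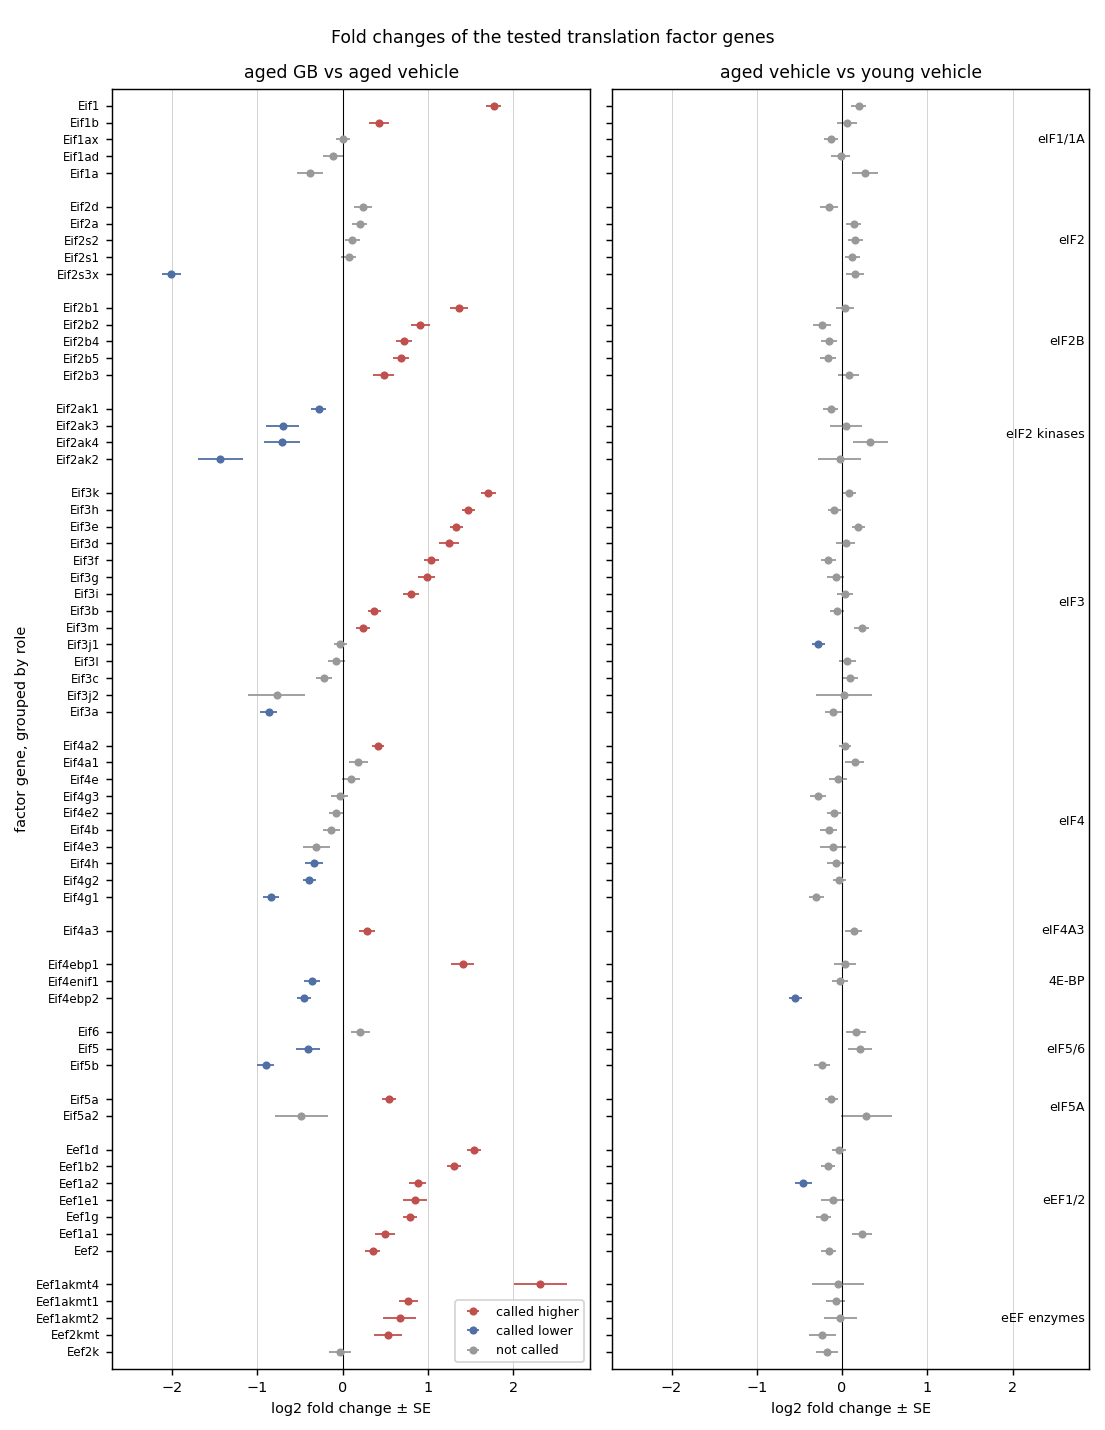
Log2 fold change of 64 tested factor genes (x axis, point with its standard error) in aged GB against aged vehicle (left) and aged vehicle against young vehicle (right), with genes down the page grouped by role and colours giving the call. The left panel is spread from -2.01 for Eif2s3x to 2.32 for Eef1akmt4, and the right panel stays between -0.55 and 0.33; Eif4ebp3, with 0 counts in the aged GB libraries, is not drawn.

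The second comparison asked what GB changes in aged muscle. Of the 65 factor genes tested, 31 rose (47.7%), 14 fell (21.5%) and 20 were not called. Over all genes tested, 24.4% were called higher and 28.8% lower. Without overlap between the groups, 33 of the 65 factor genes were higher with GB and 15 were lower, against 27.3 and 32.5% of all genes. The rises took in the elongation factors, the eIF2B subunits and most eIF3 subunits, and the falls took in the eIF2 kinases, the gamma subunit of eIF2, Eif4g1, Eif4g2 and Eif5b. Factor genes had a median log2 fold change of 0.21, and all genes one of -0.051. With libraries scaled by their totals alone the median of all genes was -0.62, with 11.6% of all genes called higher and 48.0% lower. On that scale 15 of the 65 factor genes were called higher and 36 lower, and 18 that were positive on the TMM scale were negative, so directions below are relative to the TMM scale.

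Of the 12 Eef genes tested, 11 rose with GB: the 6 genes of eEF1A, eEF1B and eEF2, Eef1e1, and 4 of 5 genes of modifying enzymes. With library totals 4 Eef genes were called higher, namely Eef1a2, Eef1b2, Eef1d and Eef1akmt4. Eef1a2 was at 2759.8, 2230.2 and 2082 CPM in aged GB libraries, against 1288, 1308 and 1241 CPM in aged vehicle libraries, a log2 fold change of 0.88 (SE 0.099, adjusted p = 9.1e-06). Aged GB replicate 1 had the highest level, and all 3 GB libraries lay above the aged vehicle libraries and also above the young vehicle libraries (1646, 1807 and 1807 CPM). Eef1a1 was at 925, 779.7 and 627 CPM with GB, against 559.7, 538 and 558 CPM with vehicle (0.49, adjusted p = 0.00287). Eef2 was at 1703, 1586 and 1510.4 CPM with GB, against 1402, 1223 and 1139 CPM with vehicle (0.35, adjusted p = 0.00613). The rises of Eef1a1 and Eef2 depended on scaling: with library totals their log2 fold changes were -0.069 and -0.21, and neither was called with an offset for gene length (adjusted p = 0.184 and 0.0516).

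All 3 subunit genes of eEF1B, the complex that reloads eEF1A, rose with GB. Eef1d, the delta subunit of eEF1B, was at 254, 284 and 243 CPM with GB, against 94.6, 87.2 and 86.4 CPM in aged vehicle libraries, a log2 fold change of 1.54 (SE 0.084, adjusted p = 1.8e-08). Eef1b2, the beta subunit, was at 299.6, 293 and 274 CPM with GB, against 112, 123 and 116 CPM with vehicle (log2 fold change 1.30, SE 0.079, adjusted p = 4.33e-08). Eef1g, the gamma subunit, was at 559, 545 and 464 CPM with GB, against 289, 313 and 304 CPM with vehicle (log2 fold change 0.79, SE 0.084, adjusted p = 5.8e-06). None of these overlapped between the groups. With library totals Eef1g was not called (0.22, adjusted p = 0.0539). The exons of Eef1d overlap those of Naprt on the same strand. Eef1e1, a scaffold of the tRNA synthetase complex despite its name, had a log2 fold change of 0.85 and was at 14.04 to 19.2 CPM with GB, against 8.76 to 9.54 CPM with vehicle, and it too was not called with library totals (0.28, adjusted p = 0.103). Differences in fold change between these genes were not tested.

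The ratio within the eEF1A pair was lower with GB. Per length, Eef1a1 made up 21.9, 22.6 and 20.1% of the pair in aged GB libraries, against 26.6, 25.6 and 27.3% in aged vehicle libraries, without overlap. The log2 count ratio was -1.61 ± 0.11 with GB and -1.21 ± 0.065 with vehicle (SD, n = 3 each), a difference of -0.40 with an exact two-sided permutation p = 0.1, the smallest possible, and 0.2 after adjustment over the 4 ratio tests. The aged vehicle libraries are shared with the age comparison, so the opposite signs of the differences are not independent.

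Of the 5 genes tested for enzymes that modify elongation factors, 4 rose. Eef1akmt4, a lysine methyltransferase of eEF1A, was at 3.56, 6.03 and 5.95 CPM with GB, against 0.774, 1.17 and 1.17 CPM in aged vehicle libraries, a log2 fold change of 2.32 (SE 0.31, adjusted p = 4.11e-05), the largest rise among the members. Its exons overlap those of Alg3 on the other strand and of a predicted gene on the same strand, so its counts are uncertain. Eef1akmt1 had 0.77, Eef1akmt2 had 0.67 and Eef2kmt had 0.53; Eef2kmt was called in 11 and Eef1akmt2 in 14 of the 17 alternatives. The call of Eef1akmt1 was lost with library totals (0.20, adjusted p = 0.146) and with the length offset, where its value was -0.057 (adjusted p = 0.701). Eef2k, the brake on eEF2, was at 49.4, 58.7 and 63.1 CPM with GB, against 58.7, 59.8 and 56.8 CPM with vehicle, which overlapped (-0.035, adjusted p = 0.841), and with the length offset it was called higher (0.39, adjusted p = 0.0158).

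**Figure D2:**
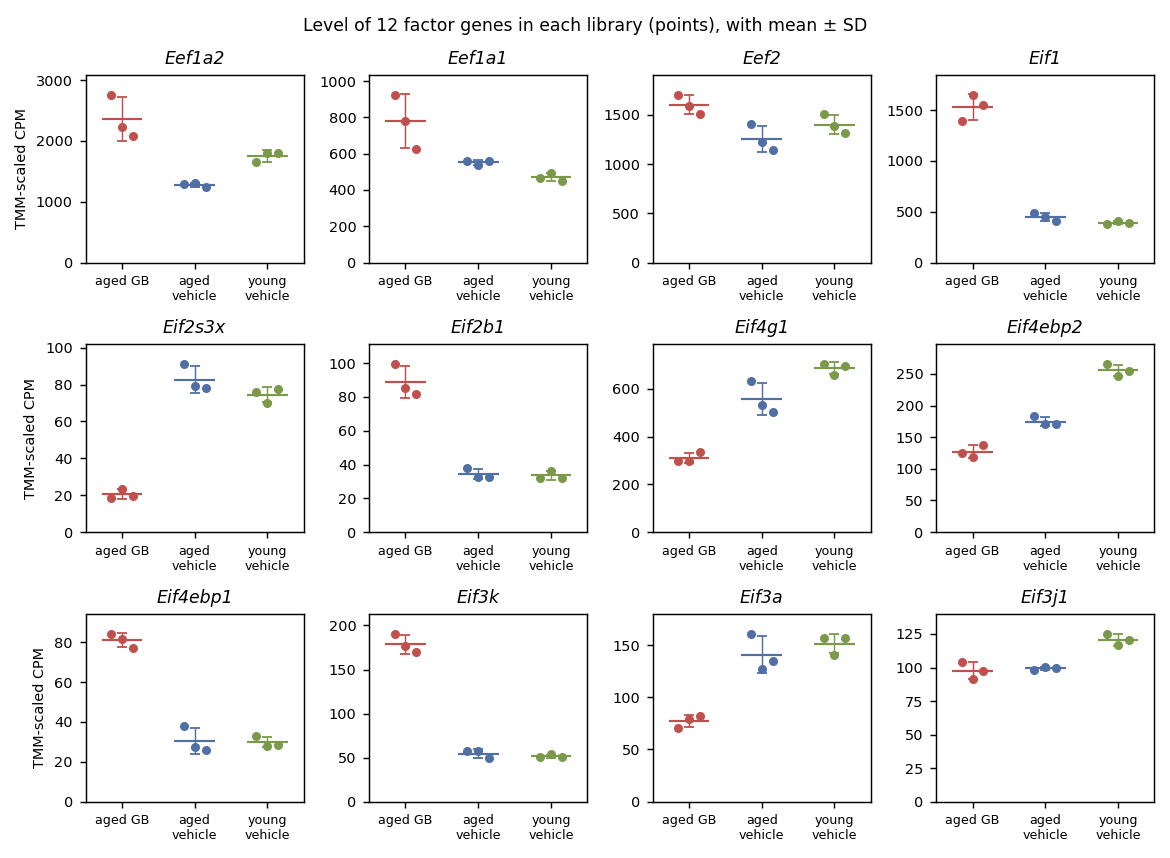
TMM-scaled CPM (y axis, from 0) of 12 factor genes in each library, with points for the 3 libraries of aged GB, aged vehicle and young vehicle mice and bars for the mean and its SD. Eif2s3x was at 18.2 to 23.6 CPM in the aged GB libraries, below every vehicle library, while Eif1, Eif2b1, Eif3k and Eif4ebp1 were higher in every aged GB library than in any vehicle library.

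Of the 5 genes for eIF2 and initiator tRNA delivery, 1 fell with GB and 4 were not called. Eif2s3x, the X-linked gene of the gamma subunit that binds GTP and the initiator tRNA, was at 18.2, 23.6 and 19.7 CPM in aged GB libraries, against 91.04, 79.2 and 77.98 CPM in aged vehicle libraries. This was 4.03-fold lower with GB, a log2 fold change of -2.01 (SE 0.11, adjusted p = 2.04e-08), and it was called in all 17 alternatives. Eif2s1, the alpha subunit that the kinases phosphorylate, was at 41.4, 39.1 and 42.2 CPM with GB, against 38.5, 39.03 and 39.4 CPM with vehicle (0.069, adjusted p = 0.524). Eif2s2, the beta subunit, was at 155, 167 and 169 CPM with GB, against 168, 142 and 144 CPM with vehicle (0.11, adjusted p = 0.272). On the scale of CPM per kb, the level of Eif2s3x was 0.57, 0.78 and 0.61 times that of Eif2s1 in aged GB libraries, against 3.1, 2.6 and 2.6 times in aged vehicle and 2.9, 2.4 and 2.8 times in young vehicle libraries. The size of these ratios rests on the gene lengths given with the counts. Eif2s3x and Eif3f, the genes with the longest pyrimidine runs printed above, lay on opposite sides of the comparison.

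The alternative initiator tRNA factors Eif2a and Eif2d had log2 fold changes of 0.20 and 0.24 with GB (adjusted p = 0.0792 and 0.0749). With the length offset, Eif2s1, Eif2s2, Eif2a and Eif2d were called higher and Eif2s3x lower, and with library totals all 5 were called lower.

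All 5 genes of eIF2B, the exchange factor of eIF2, rose with GB. Eif2b1, the alpha subunit, was at 99.4, 85.1 and 81.6 CPM with GB, against 37.7, 32.8 and 32.6 CPM in aged vehicle libraries, a log2 fold change of 1.37 (SE 0.10, adjusted p = 3.05e-07). Eif2b5, the catalytic epsilon subunit, was at 85.7, 73.7 and 81.4 CPM with GB, against 55.2, 49.1 and 45.97 CPM with vehicle (log2 fold change 0.68, SE 0.093, adjusted p = 5.33e-05). Eif2b2, Eif2b4 and Eif2b3 had log2 fold changes of 0.91, 0.72 and 0.48. Every aged GB library was above every aged vehicle library for all 5 genes. All 5 stayed called higher with the length offset, and with library totals Eif2b1 and Eif2b2 were called higher while Eif2b3 had -0.085. The exons of Eif2b4 overlap those of Snx17 on the other strand.

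All 4 eIF2 kinase genes fell with GB. Eif2ak2, which encodes the double-stranded RNA sensor PKR, was at 1.65, 1.86 and 3.36 CPM with GB, against 4.91, 6.38 and 7.32 CPM in aged vehicle libraries, a log2 fold change of -1.44 (SE 0.26, adjusted p = 0.000569). Eif2ak3, which encodes the endoplasmic reticulum stress sensor PERK, was at 4.07, 6.12 and 3.90 CPM with GB, against 7.16, 7.93 and 7.87 CPM with vehicle (log2 fold change -0.70, SE 0.19, adjusted p = 0.00841). Eif2ak4, which encodes the amino acid sensor GCN2, was at 3.94, 7.14 and 6.78 CPM with GB, against 11.4, 8.78 and 9.18 CPM with vehicle (log2 fold change -0.72, SE 0.21, adjusted p = 0.0122). Eif2ak1, which encodes the haem-regulated kinase HRI, was at 37.6, 36.01 and 33.1 CPM with GB, against 46.7, 40.8 and 42.2 CPM with vehicle (log2 fold change -0.28, SE 0.089, adjusted p = 0.0181). The groups did not overlap for any of the 4, but with the length offset only Eif2ak2 was called (-1.25, adjusted p = 0.00157), and Eif2ak1 had -0.025. The Eif2ak1 call was also lost without aged vehicle replicate 1 or aged GB replicate 3, and its exons overlap those of Aimp2 on the other strand.

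Of the 14 eIF3 genes, which form the scaffold on the small ribosomal subunit, 9 rose with GB, 1 fell and 4 were not called. The largest rises were those of Eif3k, at 191, 176 and 169 CPM with GB, against 56.98, 57.7 and 49.3 CPM in aged vehicle libraries (log2 fold change 1.71, SE 0.089, adjusted p = 1.26e-08), and of Eif3h, at 281, 281 and 263 CPM with GB, against 101, 102 and 94.02 CPM with vehicle (log2 fold change 1.48, SE 0.076, adjusted p = 1.22e-08). Eif3e was at 236, 240.3 and 235 CPM with GB, against 99.9, 89.05 and 93.6 CPM with vehicle (log2 fold change 1.33, SE 0.078, adjusted p = 3.07e-08), with a gene length of 6719 bases. Eif3f was at 299, 274 and 243 CPM with GB, against 137, 135 and 125 CPM with vehicle (log2 fold change 1.04, SE 0.088, adjusted p = 8.07e-07). Eif3d, the cap-binding subunit, Eif3g and Eif3i had 1.25, 0.98 and 0.80, and the exons of Eif3d overlap a predicted antisense gene. Eif3b and Eif3m had smaller values of 0.37 and 0.24, with negative values under library totals, where Eif3m was called lower, and Eif3m was called higher in 7 of the 17 alternatives.

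Eif3a, the largest subunit, moved the other way, at 70.8, 79.2 and 81.7 CPM with GB, against 161, 127 and 135 CPM in aged vehicle libraries, a log2 fold change of -0.87 (SE 0.10, adjusted p = 1.32e-05). This fall was called in all 17 alternatives, and with the length offset it was -0.34. Eif3c, the partner of Eif3a in the core, was at 146, 129 and 111 CPM with GB, against 159, 149 and 141 CPM with vehicle, which overlapped (-0.22, adjusted p = 0.0774). Eif3l, Eif3j1 and Eif3j2 had -0.076, -0.026 and -0.77 and were not called. The low copy Eif3j2, at 0.930 to 2.02 CPM with GB and 1.77 to 2.83 CPM with vehicle, shares sequence with Eif3j1, so reads may have been split between them.

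**Figure D3:**
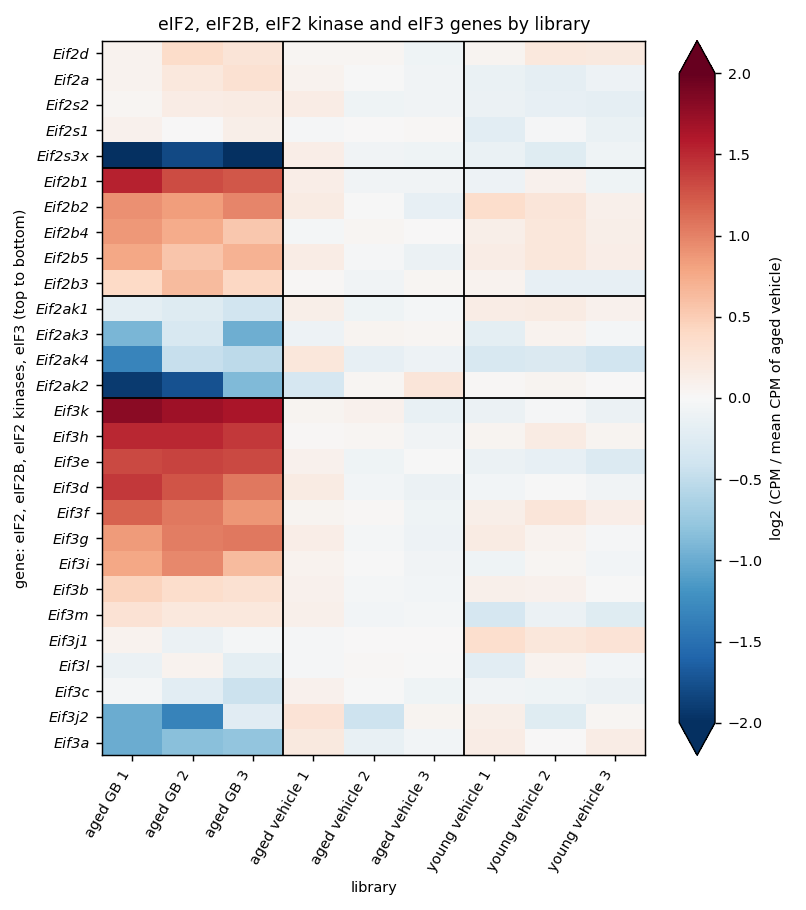
Heat map of 28 genes (rows, in blocks for eIF2, eIF2B, the eIF2 kinases and eIF3) in the 9 libraries (columns: aged GB, aged vehicle, young vehicle), where colour is log2 of CPM over the aged vehicle mean. The aged GB columns hold the strong colours, with the eIF2B block and 9 eIF3 genes above 0 and Eif2s3x, the kinases and Eif3a below 0, and the vehicle columns are pale.

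The genes that bind and unwind the capped end of mRNAs moved less evenly. Eif4g1, the scaffold of the cap complex, was at 299.8, 296 and 334 CPM with GB, against 632, 533 and 505 CPM in aged vehicle libraries, a log2 fold change of -0.84 (SE 0.092, adjusted p = 7.34e-06). It was called lower in all 17 alternatives. Eif4g2, a scaffold form that does not bind eIF4E, was at 492, 474 and 472 CPM with GB, against 688, 604 and 597 CPM with vehicle (log2 fold change -0.39, SE 0.077, adjusted p = 0.000884), but this gene of 10166 bases was called higher with the length offset (0.23, adjusted p = 0.0242). Eif4g3 was at 158 to 174 CPM with GB and 157 to 180.0 CPM with vehicle and was not called (-0.035, adjusted p = 0.789). Eif4h, a helper of the helicase, fell by 0.34 on the log2 scale, and Eif4b, another helper, had -0.13 and was not called (adjusted p = 0.284). The Eif4h call was lost with the length offset and without aged vehicle replicate 1 or aged GB replicate 3 (highest adjusted p = 0.517).

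Eif4e, the cap-binding protein, was at 96.4, 71.4 and 73.2 CPM with GB, against 75.6, 71.5 and 77.9 CPM in aged vehicle libraries, which overlapped (log2 fold change 0.10, SE 0.11, adjusted p = 0.466). Its relatives Eif4e2 and Eif4e3 had -0.082 and -0.31 and were not called. Eif4a2, the more abundant cytoplasmic helicase gene of this muscle, was at 456, 419 and 425 CPM with GB, against 337, 329.8 and 310.0 CPM with vehicle (log2 fold change 0.41, SE 0.073, adjusted p = 0.000406), with -0.15 under library totals. Eif4a1 was at 103, 88.4 and 88.9 CPM with GB, against 96.3, 71.4 and 79.6 CPM with vehicle (0.18, adjusted p = 0.198). The log2 ratio of Eif4a1 to Eif4a2 counts was -2.22 ± 0.059 with GB and -1.99 ± 0.20 in aged vehicle libraries (SD, n = 3 each; exact permutation p = 0.2, adjusted 0.267). It was -1.99 ± 0.20 in aged vehicle and -2.10 ± 0.043 in young vehicle libraries (SD, n = 3 each; exact permutation p = 0.5). Eif4a3, the helicase of the exon junction complex, had 0.29 with GB, called higher in 11 of the 17 alternatives and called lower under library totals.

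Of the 4 genes whose products bind eIF4E and hold it inactive or carry it, 1 rose and 3 fell with GB. Eif4ebp1, the 4E-BP that is a main target of mTOR, was at 84.3, 81.7 and 77.3 CPM with GB, against 38.1, 27.5 and 26.1 CPM in aged vehicle libraries, a log2 fold change of 1.41 (SE 0.13, adjusted p = 2.17e-06), called in all 17 alternatives. Eif4ebp2 was at 125, 119 and 138 CPM with GB, against 183, 170.5 and 170.1 CPM with vehicle (log2 fold change -0.46, SE 0.079, adjusted p = 0.000375), and was not called with the length offset (-0.19, adjusted p = 0.0631). Eif4ebp2 was the 1 member called lower in both comparisons, with means of 127 ± 9.93 CPM in aged GB, 175 ± 7.50 CPM in aged vehicle and 255 ± 9.23 CPM in young vehicle libraries (SD, n = 3 each), and the comparisons share the aged vehicle libraries. Eif4enif1, which carries eIF4E into the nucleus, had -0.36 with GB and -0.036 with the length offset, where it was not called. Eif4ebp3 had 0 counts in all aged GB libraries, against 20, 5 and 5 counts in aged vehicle libraries. The aged vehicle level was 5.30-fold above a limit of 3 counts over the aged GB group, or 2.58-fold without aged vehicle replicate 1. These values leave out the counting error of the aged vehicle libraries. The call of Eif4ebp3 was lost without aged vehicle replicate 1 (adjusted p = 0.052), and the exons of this gene overlap another gene model on the same strand.

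Among the factors of start codon recognition and subunit joining, Eif1, which keeps the scanning ribosome from starting at wrong codons, was at 1398, 1652 and 1546 CPM with GB, against 487, 447 and 413 CPM in aged vehicle libraries. This was 3.41-fold higher with GB, a log2 fold change of 1.77 (SE 0.088, adjusted p = 9.3e-09), called in all 17 alternatives. Its copy Eif1b had 0.43 with GB, but with the length offset it was called lower (-0.34, adjusted p = 0.0493). Eif1ax, the X-linked eIF1A gene, was at 95.9, 102 and 106 CPM with GB, against 110.0, 95.9 and 97.3 CPM with vehicle, which overlapped (log2 fold change 0.0043, SE 0.083, adjusted p = 0.97). Eif1a and Eif1ad had -0.39 and -0.12 and were not called. Eif5b, which joins the large subunit, was at 43.6, 38.96 and 41.7 CPM with GB, against 83.8, 71.1 and 77.9 CPM with vehicle (log2 fold change -0.91, SE 0.098, adjusted p = 6.78e-06), with -0.31 under the length offset, and its exons overlap those of Rev1 on the other strand. Eif5, which triggers GTP hydrolysis on eIF2, had -0.40 (adjusted p = 0.0298), called in 12 of the 17 alternatives. Eif6, which keeps free large subunits apart, was at 19.6, 19.7 and 19.4 CPM with GB, against 18.8, 15.8 and 16.2 CPM with vehicle (0.21, adjusted p = 0.148).

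Eif5a, whose product carries the amino acid hypusine and helps ribosomes past difficult stretches, was at 423, 381 and 357 CPM with GB, against 273, 259.9 and 263 CPM in aged vehicle libraries (log2 fold change 0.54, SE 0.079, adjusted p = 8.44e-05), with -0.020 under library totals. Its low paralog Eif5a2 was at 1.14, 1.44 and 2.21 CPM with GB, against 1.95, 2.32 and 2.43 CPM with vehicle (-0.48, adjusted p = 0.21). The hypusine enzyme genes Dhps and Dohh, which are not factor genes, were at 21.2 ± 1.97 and 45.2 ± 5.96 CPM with GB, against 11.6 ± 1.16 and 7.77 ± 0.711 CPM in aged vehicle libraries (SD, n = 3 each). They too were chosen after their values were seen, and their values are on the TMM scale alone. Dohh had a log2 fold change of 2.54 (SE 0.13, adjusted p = 9.18e-09) and Dhps 0.87 (SE 0.13, adjusted p = 9.61e-05).

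On the scale of CPM per kb of length, a few members held most of the signal. This scale rests on the gene lengths given with the counts, and how they were measured is not stated. Its ranks and shares are also affected by the trend with length in the GB comparison, described below. Eef1a2 was the highest of the 66 genes in every group, at 1131 with GB, 614 in aged vehicle and 841 in young vehicle libraries. Eef2 was at 481, 377 and 421 in the same groups, and Eif1 at 730.2, 214 and 187. With GB Eif1 stood above Eef2 and Eef1a1, and in both vehicle groups it stood below them. Eef1a2, Eef2, Eef1a1, Eif1 and Eef1g together made up 64.4% of the members' summed level with GB, 57.5% in aged vehicle and 59.5% in young vehicle libraries. The median gene was at 17.7 CPM per kb with GB, 14.3 in aged vehicle and 15.3 in young vehicle libraries. As a share of raw counts, Eef genes held 0.406 to 0.527% with GB, 0.411 to 0.432% under aged vehicle and 0.477 to 0.498% under young vehicle. Eif genes held 0.515 to 0.547% with GB, 0.589 to 0.628% under aged vehicle and 0.616 to 0.654% under young vehicle.

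Fold change with GB moved with gene length among the factor genes as it did among all genes. Across the 65 genes, which share libraries and are not independent, fold change and length had a Spearman correlation of -0.51, and across all genes tested it was -0.35. The 15 factor genes of up to 2500 bases had a median log2 fold change of 0.77, against 0.59 for all genes of that length. The 24 of over 2500 and up to 5000 bases had a median of 0.36, against 0.036 for all genes. The 26 over 5000 bases had a median of -0.18, against -0.46 for all genes. With the length offset, which removes a smooth trend of counts on length within libraries, 33 factor genes were called higher and 11 lower, against 22.9 and 23.8% of all genes. Of these factor genes 23 and 6 were also called in that direction without it. In the age comparison the correlation was 0.024 across the 65 genes.

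**Figure D4:**
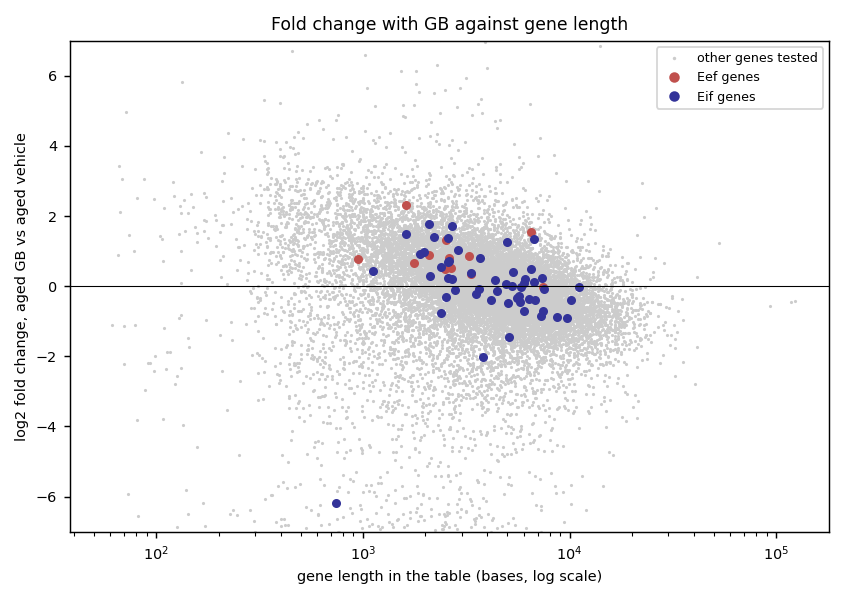
Log2 fold change of aged GB against aged vehicle (y axis) by gene length (x axis, bases, log scale) for Eef genes, Eif genes and other genes tested (grey; 163 genes beyond the y range are not drawn). Short genes mostly lie higher than long ones in grey and in colour, and the factor genes range from 744 to 11063 bases; the blue point at the lower left is Eif4ebp3, with 0 counts in the aged GB libraries, whose fitted value is no measure of size.

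Genes with and without the pyrimidine run at the start were counted by direction, and the difference between them was not tested. Of 11 factor genes with the run, 4 rose and 5 fell with GB, with a median log2 fold change of -0.12 and a median length of 3639 bases. Of 40 without it, 19 rose and 7 fell, with a median of 0.22 and a median length of 4709.5 bases. Of 11 factor genes known from other work to carry TOP tracts, 9 rose, 1 fell (Eif3a) and 1 was not called (Eif4b). Over all genes, 24.4% were called higher and 28.8% lower. This list was drawn up with earlier results of these data known, and its counts depend on scaling. With library totals Eef1a1 (-0.069), Eef2 (-0.21) and Eef1g (0.22) were not called, and Eif4b was called lower (-0.70). Eef1a2, Eef1b2, Eef1d, Eif3e, Eif3f and Eif3h stayed called higher there, and Eif3a stayed lower. Among these known genes, the search found a run in Eef1a1 and Eif3f but not in Eef1a2, Eef1b2, Eef2, Eif3a or Eif4b. Eef1d, Eef1g, Eif3e and Eif3h had no start-site sequence and were not searched. The split by run therefore does not separate TOP genes from other genes.

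Neighbouring steps of translation gave mixed counts with GB, beside 24.4% of all genes called higher and 28.8% called lower. These counts and values are on the TMM scale alone, without library totals or the length offset. The genes named from these lists were chosen after their values were seen. Of 13 genes for poly(A) binding, termination and recycling, 6 rose and 3 fell. Pabpc1, a gene of a poly(A)-binding protein, was at 85.8, 85.6 and 78.5 CPM with GB, against 65.3, 60.6 and 56.8 CPM in aged vehicle libraries (log2 fold change 0.45, SE 0.099, adjusted p = 0.002). The more abundant Pabpc4 fell, at 134, 137 and 132 CPM with GB, against 213, 209 and 195 CPM with vehicle (log2 fold change -0.62, SE 0.069, adjusted p = 9.69e-06). Gspt1, the release factor eRF3a, was at 21.5, 20.3 and 26.01 CPM with GB, against 58.2, 49.8 and 51.6 CPM with vehicle (log2 fold change -1.24, SE 0.11, adjusted p = 1.34e-06). Of 10 mitochondrial translation factor genes, 1 rose and 4 fell, and Gfm1, a mitochondrial elongation factor, had -1.58 (SE 0.082, adjusted p = 1.2e-08). Of 18 regulators of the factors, 8 rose and 7 fell. Akt1s1, an inhibitor within the mTOR complex, had 1.45 (SE 0.10, adjusted p = 1.27e-07), Mtor itself -0.68 (SE 0.10, adjusted p = 0.000104) and Larp1, which binds TOP mRNAs, -0.99 (SE 0.089, adjusted p = 1.27e-06). With age, Pabpc1, Pabpc4 and Larp1 fell, with log2 fold changes of -0.51, -0.63 and -0.50.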

How the data were processed

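Values are whole-number counts per gene as the authors deposited them, without normalization, for 56791 genes in 9 libraries of gastrocnemius RNA, beside each gene's length. How that length was measured is not given, so levels per length, also within the eEF1A pair, are uncertain between genes. Per the submitters' processing notes, the tools were FastQC, HISAT2, SAMtools and DESeq2 (no versions), with GRCm39 and mm10 both listed as builds. Counter, annotation and strand setting: not given in the sources used here. Per the labels' protocols, total RNA was extracted with TRIzol and mRNA libraries were built with a KAPA kit. Sample titles gave the groups and replicate numbers. Replicates differed by more than sampling noise and stayed separate. In every group replicate 1 stood further from the others than replicates 2 and 3 from each other. Chi-square per degree of freedom was 32.1 to 59.1 for pairs with replicate 1 and 16.3 to 18.4 for replicates 2 and 3.

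The test was the quasi-likelihood test of edgeR 4.0.16, run in R 4.3.3 (filterByExpr with minimum count 10 and minimum total count 15, TMM factors, 1 quasi-likelihood model of 3 group means, robust=TRUE, two-sided, Benjamini-Hochberg adjustment). The standard error is the size of the log2 fold change divided by the square root of F. The procedure was tested on simulated counts. Alternatives were DESeq2 1.42.0, other scalings and filters, fewer groups, a replicate block, a length offset (lowess, span 0.3) and leaving out each library. Ratios used a pseudocount of 0.5. With all genes tested weighed alike, deviations of same-numbered libraries had correlations of -0.028 to 0.030, so no pairing was assumed.

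The members and lists were chosen with earlier results of these data known. Genes named were 28 fixed ones, the 6 largest called rises and falls of at least 2 CPM per comparison, every gene called with age, and examples of each role, chosen after their values were seen. Exon overlaps come from GENCODE vM21, in which 22 of the 66 genes overlap another gene model. Intervals and limits cover counting error only, and the limit for Eif4ebp3 covers that of the aged GB counts alone.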

Additional observations from a re-analysis of the deposited data

How the results depend on the processing

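Of 45 factor genes called with GB, 20 were called in the same direction in all 17 alternatives, and of 3 called with age, 1 was. Library totals changed the counts with GB most, to 15 factor genes higher and 36 lower of 65, beside 11.6 and 48.0% of all genes. With age, DESeq2 called 2308 genes against 1508, and a fit of only the groups compared called 1 factor gene higher (Eef1a1). Leaving out 1 library gave 8217 to 9512 genes called with GB, 27 to 32 factor genes higher and 10 to 15 lower. With age it gave 749 to 2010 genes called and 1 to 3 factor genes lower; the lowest count came without young vehicle replicate 3, followed by 823 (aged vehicle replicate 3 left out), 866 (young vehicle replicate 2) and 935 (aged vehicle replicate 2). 1 factor gene was left without young vehicle replicate 3 or aged vehicle replicate 3. The replicate block gave 30 higher and 15 lower with GB and 2 lower with age, and ratio differences of -0.40 and 0.69 for Eef1a1 to Eef1a2 and -0.22 and 0.10 for Eif4a1 to Eif4a2. With GB the block ended the calls of Eif3m and Eif5 and added Eif3c and Eif1a, and with age it ended that of Eif3j1. The numbers are not known to mark shared animals or batches.

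With GB, 18 of the 65 factor genes turned from positive to negative under library totals, and 10 changed sign with the length offset. Among the genes named by rule, the values that changed sign under library totals were -0.069 (Eef1a1), -0.21 (Eef2), -0.46 (Eif4e), -0.38 (Eif4a1), -0.15 (Eif4a2), -0.020 (Eif5a), -0.50 (Eif2s1) and -0.36 (Eif6). With the length offset they were 0.39 (Eef2k), 0.25 (Eif3j1) and -0.043 (Eif6), beside Eif4g2, Eif4g3, Eif4e2, Eif1b, Eif3m, Eif4a3 and Eef1akmt1, which are not named by rule, and with the stricter filter 0.013 (Eef2k) and 0.022 (Eif3j1). With 1 library left out, values with GB ran from -0.12 to 0.050 (Eef2k, positive without aged GB replicate 1), -0.061 to 0.17 (Eif4e, negative without aged GB replicate 1) and -0.086 to 0.011 (Eif3j1, positive without aged GB replicate 2). With age, genes that were not called ran from -0.15 to 0.14 (Eif4ebp1; its other negative value was -0.016), -0.17 to 0.12 (Eif2ak2), -0.018 to 0.11 (Eif2ak3) and -0.16 to 0.13 (Eef1akmt4; its other positive value was 0.060). The cause of these changes was not tested. Depth limits the lowest members, such as Eif4ebp3, Eef1akmt3 and Eif3j2.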

Other observations

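Pseudogene names, left out of the factor genes by their mark -ps, also held counts. Eif4a-ps4, a copy of an eIF4A gene, had 205, 164 and 122 counts in aged GB libraries, against 914, 927 and 857 counts in aged vehicle and 962, 726 and 997 counts in young vehicle libraries. Eef2-ps2 had 199, 124 and 216 counts in aged GB libraries, against 459, 440 and 348 counts in aged vehicle and 631, 486 and 445 counts in young vehicle libraries. These raw counts are not on 1 scale, since the aged GB libraries held fewer counts. In CPM, Eif4a-ps4 was at 6.52, 4.92 and 3.90 with GB, against 16.1, 14.6 and 14.1 in aged vehicle libraries. Eef2-ps2 was at 6.33, 3.72 and 6.91 CPM with GB, against 8.07, 6.95 and 5.72 CPM in aged vehicle libraries, which overlapped. How reads shared by such copies and their parent genes were counted is not given in the sources used here.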
